A study of Mus musculus with 12 samples.

Results

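Cells take up amino acids through membrane carriers of the solute carrier families, and several of these carriers are known targets of the stress response that follows amino acid shortage or endoplasmic reticulum stress. Ribosome footprints and RNA of 9 such genes (Slc7a11, Slc3a2, Slc7a5, Slc7a6, Slc7a1, Slc38a2, Slc38a1, Slc1a4 and Slc1a5) were followed in KPC cells treated with cisplatin (Cis). The genes were chosen by name, and 8 of the 9 have a row in the deposited tables, among 15803 transcripts with a read in at least 1 library. Slc38a1 has no row in any of the 12 tables and is given no value here. KPC is a pancreatic ductal adenocarcinoma line from genetically engineered mice that carry, among other alterations, a Trp53 R172H allele switched on by Cre under the Pdx1 promoter, and all groups share this background. Cells received 20 μM Cis for 6 h or 21 h, or no drug (PBS in the study's methods, for a time that the labels do not give), and each of these 3 groups has 2 ribosome profiling and 2 RNA-seq libraries. Both Cis groups are set against the same control libraries, so the comparisons at 6 h and 21 h are not independent.

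In the stress response that connects these genes, kinases such as PERK and GCN2 phosphorylate the initiation factor eIF2, most translation slows, and the mRNA of the transcription factor ATF4 is translated more. ATF4 binds C/EBP-ATF response elements in genes for amino acid uptake and synthesis, and the oxidative stress factor NRF2 acts on Slc7a11 through antioxidant response elements. Slc3a2 encodes the heavy chain CD98hc, a glycoprotein that carries light chains to the plasma membrane. Among its light chains, xCT (Slc7a11) exchanges glutamate for cystine, the source of cysteine for glutathione, LAT1 (Slc7a5) takes up large neutral amino acids such as leucine, and y+LAT2 (Slc7a6) exchanges arginine for glutamine. CAT1 (Slc7a1) carries arginine and lysine without a heavy chain, SNAT2 (Slc38a2) and SNAT1 (Slc38a1) take up small neutral amino acids with sodium, and ASCT1 (Slc1a4) and ASCT2 (Slc1a5) exchange small neutral amino acids such as serine and alanine, with glutamine a substrate of ASCT2.

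The promoter windows of 4 members are shown because they hold the response element or belong to the genes that moved most. Windows run from 250 bases before to 50 bases after the annotated start, 5′ to 3′ on the strand of the gene, and were taken from RefSeq (GRCm38.p6), which had entries for 6 of the 9 genes and none for Slc7a5, Slc1a5 and Slc38a1. The motifs were searched on both strands, the core of the C/EBP-ATF response element (TGATGNAA), the core of the antioxidant response element (TGACNNNGC) and the AP-1 site (TGANTCA), and matches are in capitals.
Slc7a11 (chr3:50443564-50443863, minus strand): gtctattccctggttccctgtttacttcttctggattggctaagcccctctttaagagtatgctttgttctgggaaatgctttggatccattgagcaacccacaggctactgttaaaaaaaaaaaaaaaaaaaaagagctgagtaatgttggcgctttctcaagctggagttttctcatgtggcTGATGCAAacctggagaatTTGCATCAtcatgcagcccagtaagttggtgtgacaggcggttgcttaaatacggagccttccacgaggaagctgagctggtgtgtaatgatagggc
Slc1a4 (chr11:20332664-20332963, minus strand): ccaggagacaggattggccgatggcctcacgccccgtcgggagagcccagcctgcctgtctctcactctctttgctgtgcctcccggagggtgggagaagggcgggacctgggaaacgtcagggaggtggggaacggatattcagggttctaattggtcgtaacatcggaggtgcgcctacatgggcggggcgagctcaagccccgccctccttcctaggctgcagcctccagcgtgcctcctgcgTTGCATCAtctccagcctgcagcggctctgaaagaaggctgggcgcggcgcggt
Slc7a6 (chr8:106168604-106168903, plus strand): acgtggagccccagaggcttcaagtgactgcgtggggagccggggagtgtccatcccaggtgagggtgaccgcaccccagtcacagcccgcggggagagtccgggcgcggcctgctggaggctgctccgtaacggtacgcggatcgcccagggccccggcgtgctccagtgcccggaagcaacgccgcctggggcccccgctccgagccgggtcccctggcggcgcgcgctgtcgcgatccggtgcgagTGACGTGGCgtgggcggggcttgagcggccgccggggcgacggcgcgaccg
Slc3a2 (chr19:8713848-8714147, minus strand): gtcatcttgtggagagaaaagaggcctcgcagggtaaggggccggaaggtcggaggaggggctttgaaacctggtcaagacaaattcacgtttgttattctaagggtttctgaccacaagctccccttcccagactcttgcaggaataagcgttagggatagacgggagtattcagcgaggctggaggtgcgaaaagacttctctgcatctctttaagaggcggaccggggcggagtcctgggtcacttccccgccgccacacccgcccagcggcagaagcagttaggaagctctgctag
The Slc7a11 window holds 2 C/EBP-ATF cores on opposite strands, at positions -66 to -59 on its own strand and -47 to -40 on the opposite strand, counted from the start. Of 32851 windows of this length, 3.97% hold at least 1 such core and 0.0700% hold 2 or more. The Slc1a4 window has 1 core across the start, at -4 to 4 on the opposite strand. Slc7a6 has a match to the antioxidant core, found in 12.4% of windows, as have Slc38a2 (-27 to -19) and Slc7a1 (-11 to -3), and the first Slc7a1 window also has an AP-1 match, found in 7.81% of windows. In Slc3a2 none of these letters occur in this window. A match is a description of the sequence and no evidence of binding.

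Footprints are mRNA fragments protected by ribosomes, and footprints per RNA give the translation efficiency (TE). Values are RPKM, reads scaled to coding length (footprints) or transcript length (RNA-seq) and to the read total of the library. Footprint libraries held 3375480 to 5204127 reads and RNA-seq libraries 1985344 to 2901692, of which Lars2, Tmem38b and Mettl26 took 51.8 to 56.6%. Members had 165 to 1210 reads in a footprint library and 39 to 322 in an RNA-seq library, so that RNA changes were measured less precisely. The cells were bulk cultures, in which a change in the share of cells that express a gene and a change per cell cannot be told apart, and RPKM measures shares of a library, not amounts per cell. Of the ductal markers, Krt8, Krt18 and Krt19 were abundant while Epcam and Muc1 were at most 1.83 RPKM in footprints. Summed over the 8 ductal markers, footprints ranged from 9113 to 9795 RPKM in the control, 9313 to 9372 at 6 h and 6728 to 6861 at 21 h. By the test described below, 4 of the 7 tested in footprints (Krt7, Krt8, Krt19 and Cdh1) were lower and 1 (Sox9) higher at 21 h. These are 57.1% and 14.3% of those tested, beside 20.2% and 18.9% of all transcripts. In RNA, 3 of 6 tested were lower and 2 higher, beside 12.2% and 11.6% of all transcripts. The part of these marker shifts in the changes given next was not tested. Summed fibroblast and endothelial markers stayed at or below 9.54 and 0.666 RPKM, and of the macrophage markers Cd14 reached 94.7 RPKM while Ptprc and Adgre1 stayed at or below 0.318.

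Tests were made with limma on log2(RPKM + 0.5) after scaling between libraries, two-sided, over all transcripts, with Benjamini-Hochberg adjustment, and a gene is said to rise or fall at an adjusted p under 0.05. All 8 listed members passed the filter on low values in both assays. At 6 h none of the 8 members changed in footprints, where 2.04% of 10383 transcripts did (1.05% higher, 0.992% lower). At 21 h, 2 members rose (Slc3a2 and Slc7a6) and 1 fell (Slc7a11), beside 39.1% of all transcripts that changed, 18.9% up and 20.2% down. The members changed in a share near that background. The median footprint change at 21 h was 0.05 on the log2 scale over the members and 0.01 over all transcripts, with the member median at 0.18 without 21 h replicate 1, -0.06 without 21 h replicate 2, 0.10 without control replicate 2 and 0.00 without control replicate 1. In RNA, none changed at 6 h (0.0% of 9443 transcripts did, with 1086 at an unadjusted p under 0.05 and none of the members among them), and at 21 h Slc3a2 and Slc7a6 rose and no member fell, beside 23.8% of all transcripts. The RNA median at 21 h was 0.27 for the members and 0.02 for all, and the former was 0.16 without control replicate 1 or 21 h replicate 2 and 0.43 without control replicate 2.

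Separation of the libraries was more frequent than calls. It was read on RPKM as deposited, without the scaling between libraries used in the tests. In footprints both libraries of a pair lay apart from the control pair for 3 of 8 members at 6 h and 5 at 21 h, and for 5 between 21 h and 6 h, beside 54.5%, 70.0% and 67.0% of all transcripts. In RNA this held for 1 member at 6 h (Slc7a1, lower), 5 at 21 h and 7 between 21 h and 6 h, beside 44.8%, 64.2% and 59.9% of all. In the last of these, Slc7a11 was lower, Slc7a5 overlapped and the other 6 were higher at 21 h. A pair that lies apart is therefore common in these libraries and was not read as a change by itself. In RNA it also depends on the scaling, with factors of 0.959 and 0.963 at 6 h and 1.04 and 1.09 at 21 h. Divided by these, the Slc7a5 pair at 21 h lies below its 6 h pair and the Slc1a5 pairs overlap. The shares over all transcripts were not counted on scaled values.

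**Figure D1:**
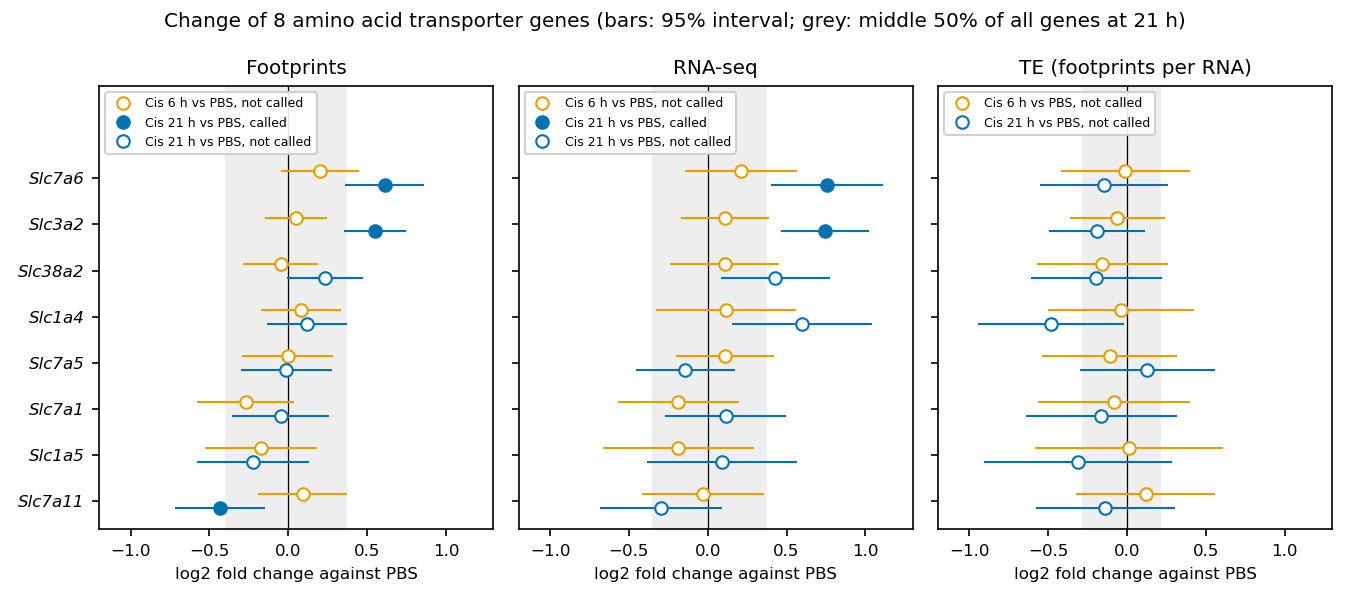
Change of the 8 listed members against the control, as log2 fold change (x axis) of footprints, RNA and TE at 6 h (orange) and 21 h (blue). Points are estimates from 2 against 2 libraries with 95% intervals, filled where the adjusted p was under 0.05, and grey spans the middle 50% of all transcripts at 21 h. Slc7a6 and Slc3a2 lie to the right of the grey span in footprints and RNA at 21 h, as do the unfilled Slc1a4 and Slc38a2 in RNA. Slc7a11 lies to its left in footprints and Slc1a4 and Slc1a5 in TE, where no value is filled.

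Slc3a2, the heavy chain, had the most footprints of the members in every group. Its footprints were 132 and 132 RPKM in the control libraries, 143 and 133 at 6 h, and 194 and 203 at 21 h. Both 21 h libraries lay above all the others. The rise at 21 h was 0.55 on the log2 scale (SE 0.09, limma adjusted p = 0.00146), or from 132 ± 0.363 to 198 ± 6.63 RPKM (SD, n = 2). Against 6 h it was 0.50 (SE 0.09, limma adjusted p = 0.00374), where 30.7% of all transcripts differed. Slc3a2 RNA was 20.9 and 21.2 RPKM in the control, 22.9 and 20.6 at 6 h, and 35.4 and 40.1 at 21 h. The control and 6 h libraries overlapped and the 21 h libraries stood above both. The RNA rise of 0.74 (SE 0.12, limma adjusted p = 0.0029) placed Slc3a2 at the 90.9th percentile of RNA changes, and its footprint rise at the 83.7th percentile of footprint changes. Its TE differed from the control by -0.19 at 21 h (95% interval -0.49 to 0.11, limma adjusted p = 0.612). The RNA difference between 21 h and 6 h was 0.63 (SE 0.12, limma adjusted p = 0.01). It lost its call without trend in the model (adjusted p = 0.0533 from limma). The call was also lost without replicate 2 of the 6 h group (0.55) or replicate 2 of the 21 h group (0.57).

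Slc7a6, the light chain of the y+L system, rose with it. Footprints were 46.9 and 42.4 RPKM in the control, 50.9 and 52.7 at 6 h, and 66.0 and 74.3 at 21 h. The groups did not overlap with each other. The change was 0.20 at 6 h (SE 0.11, limma adjusted p = 0.330) and 0.61 at 21 h (SE 0.11, limma adjusted p = 0.00275). RNA was 10.5 and 11.9 RPKM in the control, 11.3 and 13.7 at 6 h, and 19.1 and 21.8 at 21 h. The rise of RNA at 21 h was 0.76 (SE 0.16, limma adjusted p = 0.00868), the 91.3rd percentile of all RNA changes. This call was lost without control replicate 1 (adjusted p = 0.0668 from limma) or 21 h replicate 2 (adjusted p = 0.0530 from limma), on 84 to 171 reads a library. TE at 21 h differed from the control by -0.15 (95% interval -0.55 to 0.26, limma adjusted p = 0.805). Between 21 h and 6 h footprints differed by 0.41 (SE 0.11, limma adjusted p = 0.0226) and RNA by 0.54 (SE 0.16, limma adjusted p = 0.0460), beside 15.7% of all transcripts in RNA (7.53% higher, 8.21% lower). The RNA difference passed under 6 of 17 alternatives. The footprint difference passed in 12 of 16.

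Slc7a11, the cystine carrier and the member with a pair of C/EBP-ATF cores, moved the other way. Footprints were 89.2 and 72.5 RPKM in the control, 89.9 and 83.4 at 6 h, and 56.6 and 65.6 at 21 h. The 6 h libraries overlapped with the control, and both 21 h libraries lay below all the others. The fall at 21 h was -0.43 on the log2 scale (SE 0.12, limma adjusted p = 0.0233), from 80.8 ± 11.8 to 61.1 ± 6.38 RPKM (SD, n = 2). It missed the threshold without control replicate 1, the higher of the pair (-0.31, adjusted p = 0.133 from limma), and without 21 h replicate 1 (-0.32, adjusted p = 0.115 from limma), and also without trend in the model (adjusted p = 0.0709 from limma). The difference between 21 h and 6 h was -0.53 (SE 0.12, limma adjusted p = 0.0143) and missed it without either 6 h library or 21 h replicate 1 (adjusted p of 0.0531 to 0.0887 from limma). RNA was 9.78 and 12.0 RPKM in the control, 9.72 and 10.6 at 6 h, and 9.50 and 9.03 at 21 h. Both 21 h libraries were below the others, the nearest of which was at 9.72 RPKM. The RNA change at 21 h was -0.30 (95% interval -0.68 to 0.09, limma adjusted p = 0.244), and passed the threshold with voom on the recovered reads (adjusted p = 0.0373 from limma). TE differed by -0.14 (95% interval -0.58 to 0.30, limma adjusted p = 0.835), so footprints and RNA were not shown to change by different amounts.

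Slc7a5, the carrier of leucine and other large neutral amino acids, did not pass the test in either assay. Footprints were 87.4 and 87.7 RPKM in the control, 91.0 and 85.6 at 6 h, and 78.4 and 101 at 21 h. The 21 h pair spread to both sides of the other libraries, and its mean of 89.7 ± 16.0 RPKM (SD, n = 2) was within that spread of the control (87.6 ± 0.192). The difference at 21 h was -0.01 (95% interval -0.30 to 0.28, limma adjusted p = 0.946). RNA was highest among the members in the control (24.1 and 30.8 RPKM) and was 27.6 and 28.4 at 6 h and 24.4 and 28.0 at 21 h. The RNA change at 21 h was -0.14 (95% interval -0.45 to 0.17, limma adjusted p = 0.503).

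**Figure D2:**
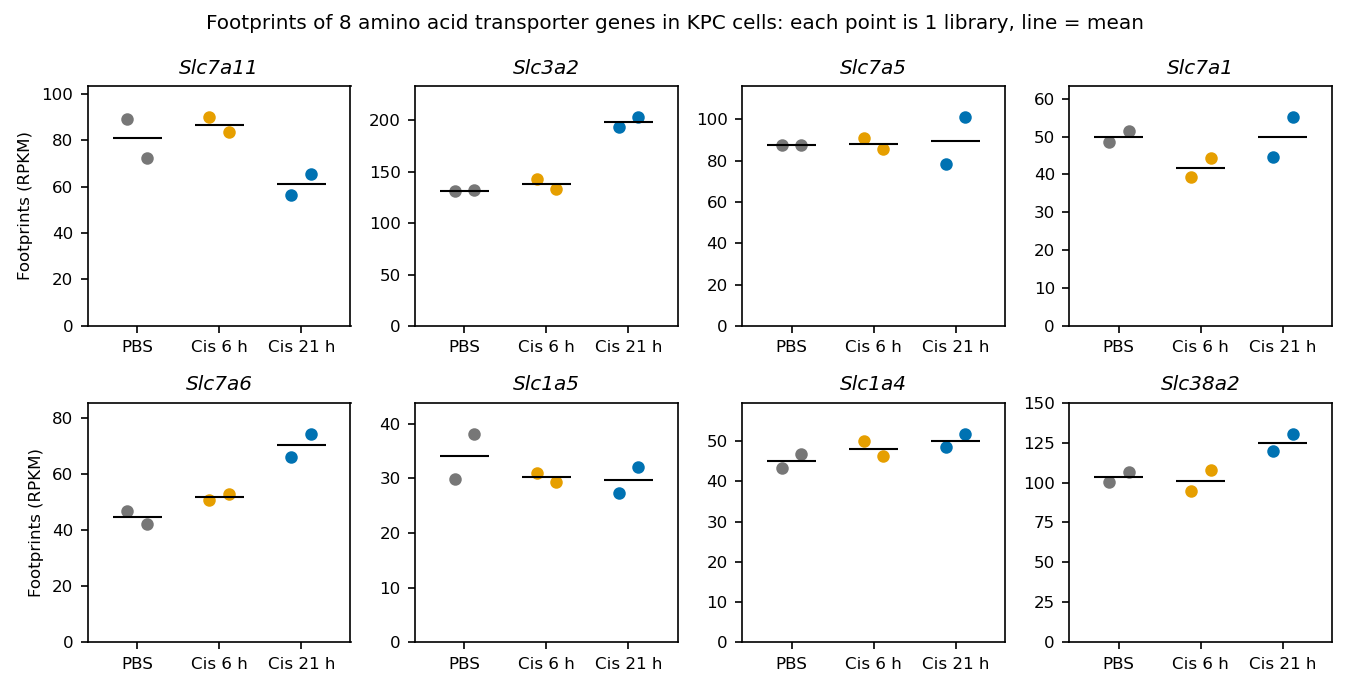
Footprints of the 8 listed members (RPKM, y axis, from 0) in the control (PBS), Cis 6 h and Cis 21 h groups. Each point is 1 library and the line is the mean of the pair. For Slc3a2 and Slc7a6 both 21 h points lie above the other libraries, for Slc7a11 both lie below them, and for Slc7a5 the pair spreads from 78.4 to 101 RPKM.

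The light chains were also read per heavy chain, as a description. The 6 light chains that pair with Slc3a2 (Slc7a5, Slc7a6, Slc7a7, Slc7a8, Slc7a10 and Slc7a11) summed to 229 and 209 RPKM of footprints in the control, 238 and 227 at 6 h, and 207 and 247 at 21 h. The 3 groups overlapped. Per Slc3a2, light chain footprints were 1.74 and 1.58 in the control, 1.66 and 1.71 at 6 h, and 1.07 and 1.22 at 21 h, or 1.66 ± 0.116, 1.69 ± 0.0356 and 1.14 ± 0.103 (SD, n = 2). Both 21 h libraries fell below the other 4, but no test of the ratio was made. RNA gave 2.18 and 2.69 in the control, 2.17 and 2.66 at 6 h, and 1.55 and 1.52 at 21 h, also with both 21 h libraries lowest. Within the light chains, Slc7a11 held 36.8 ± 2.91% of footprints in the control, 37.2 ± 0.768% at 6 h and 27.0 ± 0.522% at 21 h, and Slc7a6 20.4 ± 0.0968%, 22.3 ± 1.27% and 31.0 ± 1.25%. The share of Slc7a5 stayed within 37.7 to 42.1% in all 6 libraries. Slc7a6 per Slc3a2 ranged from 0.321 to 0.397 over the 6 libraries with no order by group, whereas Slc7a11 per Slc3a2 was 0.549 to 0.678 in the control and 6 h libraries and 0.292 and 0.323 at 21 h. Footprints count translation and not protein, so these ratios do not give the make-up of the complexes.

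**Figure D3:**
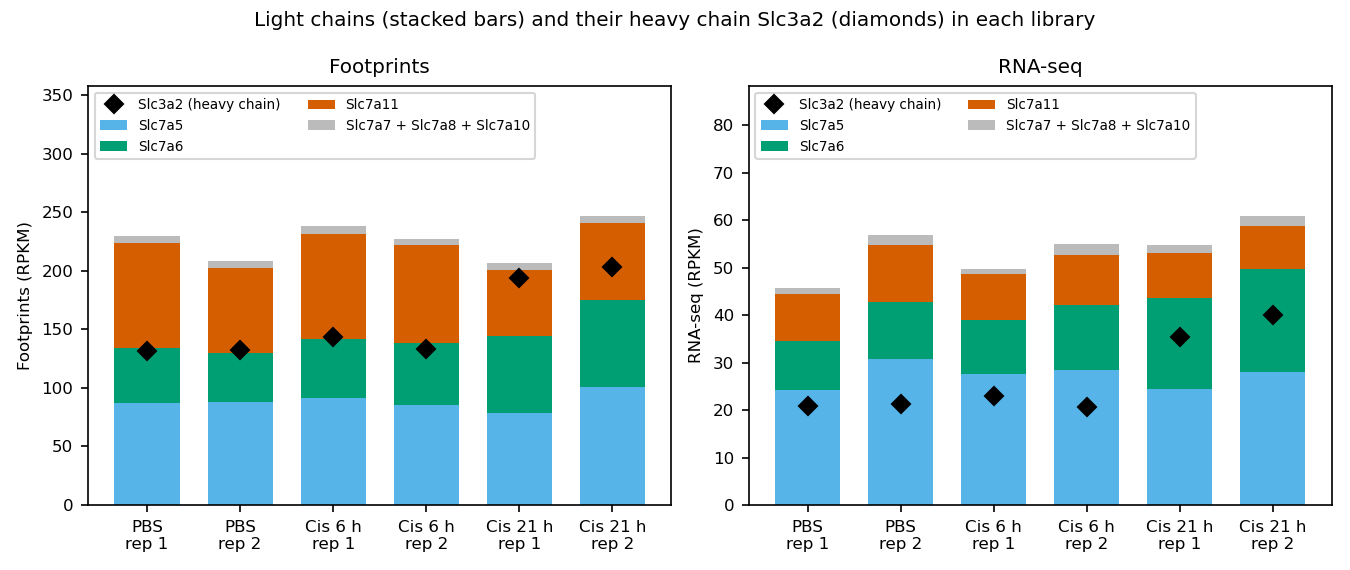
Light chains as stacked bars and their heavy chain Slc3a2 as diamonds, in RPKM of footprints (left) and RNA (right) for each of the 12 libraries. In footprints the diamonds rise from 132 to 143 RPKM in the control and 6 h libraries to 194 and 203 at 21 h while the bars range from 207 to 247 RPKM with no such step, and the Slc7a11 segment is smallest at 21 h.

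The carriers that work without a heavy chain did not pass the main test in any comparison. Slc38a2 (SNAT2) had footprints of 100.4 and 107 RPKM in the control, 94.4 and 108 at 6 h, and 119.5 and 130.5 at 21 h. Its 21 h libraries lay above the other 4. The difference at 21 h was 0.23 (95% interval -0.01 to 0.47, limma adjusted p = 0.110), and that against 6 h 0.28 (limma adjusted p = 0.0730), and both passed with voom on the recovered reads (adjusted p of 0.0472 and 0.0219 from limma). Its RNA was 16.9 and 21.2 RPKM in the control, 17.8 and 21.4 at 6 h, and 25.2 and 29.4 at 21 h, again with the 21 h libraries on top, a difference of 0.43 (95% interval 0.08 to 0.77, limma adjusted p = 0.0729). This passed with RPKM as deposited, with a replicate block and with voom, whose adjusted p was lowest (0.00196 from limma).

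Slc1a4 (ASCT1), which exchanges serine, alanine and cysteine, had the lowest RNA of the members in the control. Its RNA was 5.38 and 6.93 RPKM in the control, 6.80 and 5.96 at 6 h, and 9.19 and 11.1 at 21 h, with both 21 h libraries above the rest. The difference of 0.60 at 21 h (95% interval 0.16 to 1.04, limma adjusted p = 0.0541) was just above the threshold, and passed it with RPKM as deposited, a higher filter on low values, or voom (adjusted p of 0.0109 to 0.0459 from limma). Footprints moved less, from 43.3 and 46.8 RPKM in the control through 49.9 and 46.4 at 6 h to 48.4 and 51.8 at 21 h, a difference of 0.12 (95% interval -0.14 to 0.37, limma adjusted p = 0.435). Its TE was the furthest below the control at 21 h (-0.48, 95% interval -0.95 to -0.02), with an unadjusted p of 0.0426 and an adjusted p of 0.379 from limma. It did not pass in any of 23 alternatives (lowest adjusted p = 0.281 from limma).

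Slc1a5 (ASCT2), a sodium-dependent glutamine exchanger, had the fewest footprints of the members in every group. Footprints were 29.9 and 38.1 RPKM in the control, 31.0 and 29.4 at 6 h, and 27.4 and 32.0 at 21 h, and all groups overlapped. The difference at 21 h was -0.22 (95% interval -0.58 to 0.13, limma adjusted p = 0.286). Slc7a1 (CAT1), the arginine carrier, had 48.5 and 51.4 RPKM in the control, 39.3 and 44.3 at 6 h, and 44.5 and 55.1 at 21 h. Its 6 h libraries were the lowest of the 6, with a difference of -0.27 from the control (95% interval -0.58 to 0.04, limma adjusted p = 0.290). RNA of Slc7a1 was likewise lowest at 6 h (10.3 and 10.9 RPKM, against 11.9 and 13.5 in the control and 12.6 and 17.1 at 21 h), a difference of -0.19 at 6 h (limma adjusted p = 0.712). Slc1a5 RNA was 7.05 and 9.60 RPKM in the control, 7.65 and 6.11 at 6 h, and 8.23 and 10.6 at 21 h, with no test passed.

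**Figure D4:**
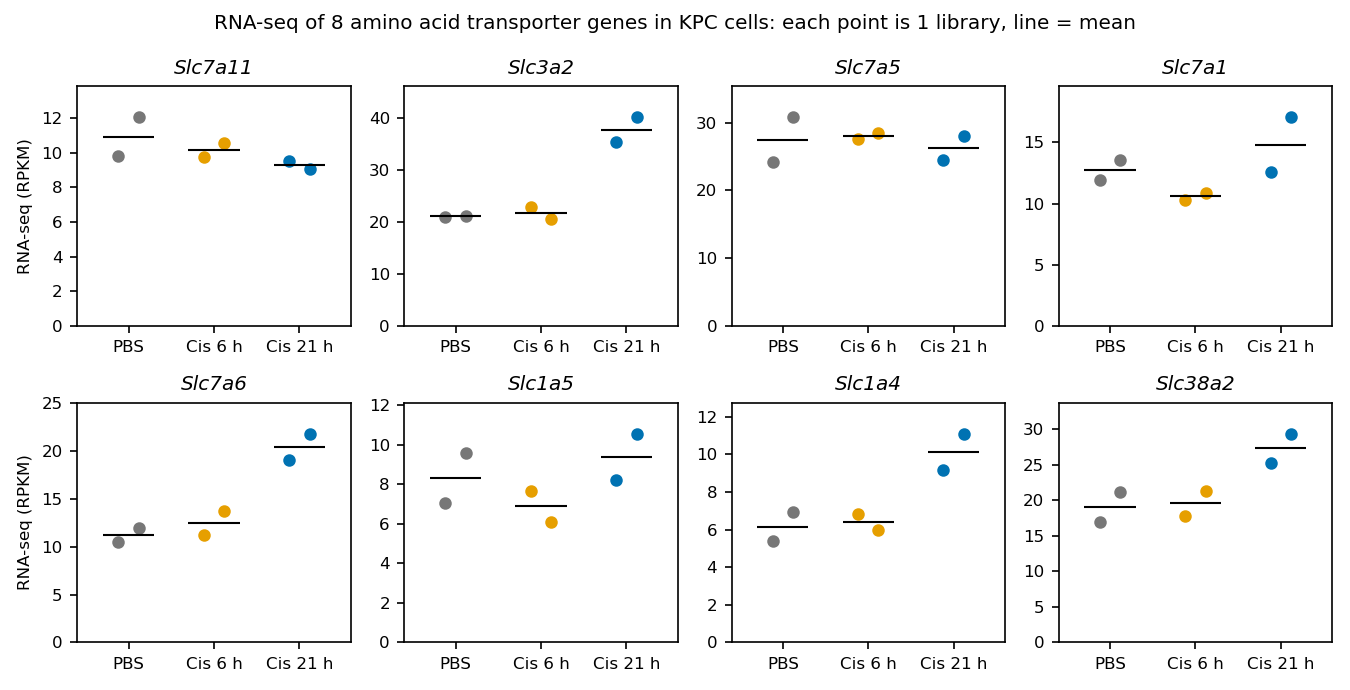
RNA of the 8 listed members (RPKM, y axis, from 0) in the control (PBS), Cis 6 h and Cis 21 h groups. Each point is 1 library and the line is the mean of the pair. Both 21 h points lie above the other libraries for Slc3a2, Slc7a6, Slc1a4 and Slc38a2, and Slc7a11 is the member with both 21 h points below them.

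TE passed the test for none of the 8 members, at 6 h (0.0% of 9295 transcripts passed, with 710 at an unadjusted p under 0.05) or at 21 h (0.409% passed, 0.258% up and 0.151% down, with 1183 at an unadjusted p under 0.05, Slc1a4 among them). At 21 h the member median was -0.18 against -0.04 over all transcripts, and 7 of the 8 estimates were below 0, with Slc7a5 (0.13) the exception. The member median was -0.08 without RNA-seq control replicate 1 and -0.09 without footprint 21 h replicate 1. For the control, mean footprint RPKM was divided by mean RNA RPKM (2 libraries each). The ratio was 7.41 for Slc7a11, 7.32 for Slc1a4, 6.25 for Slc3a2 and 5.43 for Slc38a2. These lay at the 86.8th, 86.5th, 81.4th and 75.1st percentile of 9323 transcripts, whose median was 3.42. The other 4 lay between 3.19 (Slc7a5) and 4.09 (Slc1a5), with Slc7a5 at the 46.2nd percentile. No spread is given, since the labels do not say which footprint library belongs with which RNA-seq library. RNA-seq reads are divided by the whole transcript and footprints by the coding sequence, so these levels order genes and do not count ribosomes per mRNA.

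By footprints per kilobase the members ranked in the control from Slc3a2 (132 ± 0.363 RPKM) through Slc38a2 (103 ± 4.36), Slc7a5 (87.6 ± 0.192), Slc7a11 (80.8 ± 11.8), Slc7a1 (49.9 ± 2.05), Slc1a4 (45.1 ± 2.43) and Slc7a6 (44.6 ± 3.21) to Slc1a5 (34.0 ± 5.83; SD, n = 2). Neighbours overlapped for Slc7a5 and Slc7a11 and for Slc1a4 and Slc7a6. At 21 h Slc7a6 (70.2 ± 5.86) stood above Slc7a11 (61.1 ± 6.38), which reversed their control order. Their libraries nearly touched, with the lower Slc7a6 library at 66.0 and the higher Slc7a11 library at 65.6 RPKM. Slc3a2, Slc38a2 and Slc7a5 remained the first 3. Together the members took 925 and 928 of each 1000000 footprints in the control, 944 and 933 at 6 h, and 1022 and 1149 at 21 h. Slc3a2 alone gave 1210 and 1202 of the 3769 and 4013 member reads in the 21 h libraries.

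Genes around the transporters were read from lists. Of 33 other amino acid transporters, 28 were listed and 9 had enough footprints to test. None rose and 2 fell at 21 h, Slc6a6, the taurine carrier (101 ± 6.12 to 59.8 ± 2.39 RPKM, log2 change -0.79, SE 0.10, limma adjusted p = 0.000551), and Slc43a2, a carrier of large neutral amino acids (4.28 ± 0.00305 to 2.22 ± 0.431 RPKM, log2 change -0.86, SE 0.25, limma adjusted p = 0.0261). The Slc43a2 call was lost without either control library, without 21 h replicate 1 or with quantile normalization. The share that fell, 22.2%, was near the 20.2% of all transcripts, and the list median was -0.09 at 21 h. Among 27 carriers of other substrates and ion pumps of the plasma membrane, 2 rose (Slc12a4 and Slc39a6, named after their values were seen) and 10 fell at 21 h, with a median of -0.26 (all transcripts 0.01). These are 7.41% and 37.0% of the list, beside 18.9% and 20.2% of all transcripts. The zinc importer Slc39a10 fell by 1.37 on the log2 scale (SE 0.17, limma adjusted p = 0.000487), the bicarbonate carrier Slc4a7 by 1.10 (SE 0.16, limma adjusted p = 0.00117) and the calcium pump Atp2b1 by 1.04 (SE 0.11, limma adjusted p = 0.000256). Atp2b1 had already fallen by 0.61 at 6 h (SE 0.11, limma adjusted p = 0.0376), a call lost in 7 of 16 alternatives, each left-out control or 6 h library among them.

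Larger changes than those of the transporters occurred among the regulators of the response. Of 20 regulators, 13 rose and 1 fell in footprints at 21 h, with a median of 0.59, and 10 rose in RNA (6 without control replicate 1). In footprints 65.0% of the list was thus higher, beside 18.9% of all transcripts higher and 20.2% lower, and in RNA 11.6% of all transcripts were higher. Atf3 footprints rose from 19.4 ± 0.0727 RPKM to 39.4 ± 3.19 at 6 h and 256 ± 18.8 at 21 h, and Ddit3, which encodes CHOP, from 11.4 ± 0.531 to 19.1 ± 1.27 and 147 ± 9.25 (SD, n = 2). Ppp1r15a, the eIF2 phosphatase subunit GADD34, rose by 2.93 on the log2 scale at 21 h (SE 0.19, limma adjusted p = 2.28e-05). The 6 h calls of Atf3 and Ddit3 (limma adjusted p of 0.00801 and 0.0343) were each lost without trend and when either 6 h library or control replicate 1 was left out. That of Ddit3 was lost in 8 of 16 alternatives, control replicate 2 left out, no filter, a replicate block and voom among them. The regulator that fell at 21 h was the kinase Eif2ak2, and Eif2s1, the alpha subunit of eIF2, fell at 6 h (-0.47, limma adjusted p = 0.0289) and rose at 21 h, both named after their values were seen. Its fall at 6 h was lost without a filter, without trend, with a replicate block and without any of the control or 6 h libraries. Atf4, also named after its values were seen, was the 1 list gene whose TE passed the test at 21 h (0.95, SE 0.16, limma adjusted p = 0.0360), with footprints of 88.4 ± 7.70 RPKM in the control and 349 ± 34.3 at 21 h. No TE call was left in the list when any of 8 of the 12 libraries was left out. There was also no TE call in the list without a filter, without trend or with only 2 groups in the model. The difference in change between regulators and transporters was not tested.

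Enzymes of amino acid and glutathione metabolism were read next. Of 15 amino acid synthesis enzymes, 6 rose and none fell in footprints at 21 h (median 0.25). The 40.0% called were near the 39.1% called over all transcripts. All of those in the list rose, whereas over all transcripts 18.9% rose and 20.2% fell. The list was led by Cbs of the transsulfuration route (log2 change 1.71, SE 0.24, limma adjusted p = 0.000977), the alanine aminotransferase Gpt2 (1.19, SE 0.16, limma adjusted p = 0.000626) and Mthfd2 of mitochondrial folate metabolism (0.71, SE 0.11, limma adjusted p = 0.00173). Of 9 glutathione enzymes tested, 6 rose and 1 fell in footprints (median 0.47), or 66.7% and 11.1% beside 18.9% and 20.2% of all transcripts. Chac1 here and Sesn2 in the next list also belong to the regulators above, so the lists are not separate sets of genes. Chac1, which degrades glutathione, rose by 1.43 (SE 0.17, limma adjusted p = 0.000415) and Gclm, the modifier subunit of glutamate-cysteine ligase, by 0.62 (SE 0.10, limma adjusted p = 0.00138), while the glutathione reductase Gsr went from 446 ± 11.8 to 301 ± 18.7 RPKM (log2 change -0.60, SE 0.08, limma adjusted p = 0.000649). In the mTORC1 amino acid sensing list, 22 of 25 genes were tested, where 3 rose (Sesn2, Flcn and Rraga) and 5 fell (Rptor, Depdc5, Nprl3, Rheb and Lamtor4) at 21 h, with a median of -0.00. The 36.4% called were near the 39.1% of all transcripts. Without control replicate 1 the counts were 2 and 3, and without 21 h replicate 2 they were 3 and 2. Flcn, Rraga, Nprl3, Rheb and Lamtor4 were named after their values were seen. Rptor, the scaffold subunit of mTORC1, fell by 1.77 (SE 0.23, limma adjusted p = 0.000613), and the leucine sensor Sesn2 rose by 1.11 (SE 0.22, limma adjusted p = 0.00428). Depdc5, a GATOR1 subunit, went from 3.39 ± 0.354 to 1.36 ± 0.402 RPKM (limma adjusted p = 0.0148), a call lost without either control library or 21 h replicate 2.

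**Figure D5:**
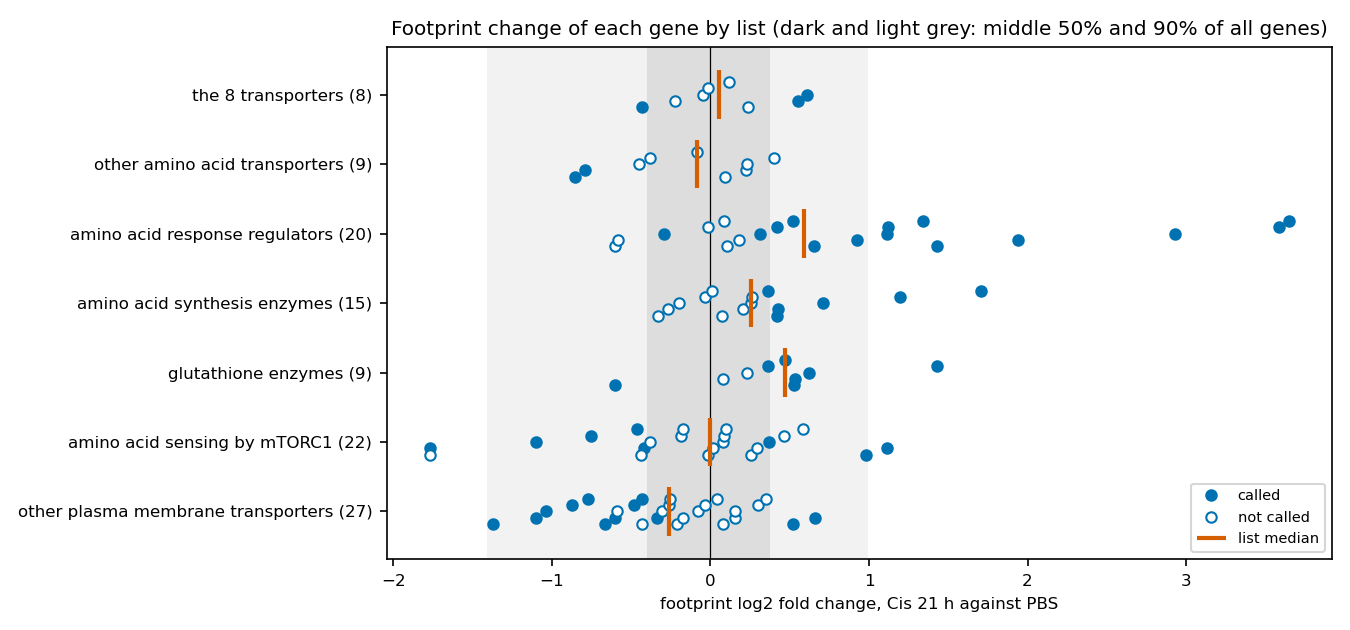
Footprint log2 fold change at 21 h against the control (x axis) for each tested gene of 7 lists, filled where the adjusted p was under 0.05, with the list median as an orange bar. The numbers tested are in brackets and grey bands span the middle 50% and 90% of all transcripts. The transporters lie between -0.43 and 0.61, and the regulators reach 3.65 (Atf3).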

How the data were processed

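The 12 libraries (3 groups of 2 in each of 2 assays) were deposited as RPKM per transcript, made by the authors with cutadapt and STAR on GRCm39 per the labels (versions not given in the sources used here). All values (100.0%) were whole reads within 0.01 reads when multiplied by length and depth, footprints over the coding sequence and RNA-seq over the whole transcript. Where replicates came from separate cultures is not stated, so p-values measure the spread between these libraries.

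RPKM were scaled by median of ratios and tested as log2(RPKM + 0.5) with limma 3.58.1 in R 4.3.3 (trend, 3 groups in 1 model), two-sided, over transcripts with a mean of at least 1, with Benjamini-Hochberg adjustment at 0.05. Fold changes on this scale understate those of low transcripts. TE was the interaction of assay and group over all 12 libraries. The code was tested on simulated data. Tables were made with Python 3.11.15 and pandas 2.3.3.

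The members and lists were chosen with earlier results of these data known. Named were all members, up to 3 genes a list with the largest footprint change at 21 h among those past the threshold (2 at 6 h), and the genes closest to each member in pattern. Markers were given by counts and sums. Alternatives were other pseudocounts, filters and scalings, no trend, 2 groups in the model, a replicate block, voom on recovered reads, no Lars2, Tmem38b and Mettl26, and each library left out. Replicate libraries were not copies of each other, since their reads differed beyond sampling noise (chi-square of 1.45 to 3.97 for each degree of freedom). This does not tell separate cultures from repeat preparations of 1 lysate. Promoter sequences came from RefSeq.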

Additional observations from a re-analysis of the deposited data

Results flagged for a closer look

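The change from the control differed between 21 h and 6 h for 3 members, by the contrast of both Cis groups in limma. On the log2 scale the footprint change at 21 h minus that at 6 h was -0.53 for Slc7a11, 0.50 for Slc3a2 and 0.41 for Slc7a6. In RNA it was 0.63 for Slc3a2 and 0.54 for Slc7a6. The control cancels in these differences, so they are the comparisons of 21 h with 6 h given in the report, with their adjusted p and the libraries on which they rest. With 2 libraries a group, no single library could be screened as standing apart.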

How the results depend on the processing

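Of 1160 alternative values for 64 member results, 1065 kept their direction and their side of the threshold. None of the 10 calls changed sign. The footprint rises of Slc3a2 and Slc7a6 and the RNA rise of Slc3a2 at 21 h passed in every alternative (highest limma adjusted p 0.0155, 0.0217 and 0.0260). The number of members called in footprints between 21 h and 6 h, 3, was 1 without trend and 1 to 3 with a library left out. In RNA at 21 h it was 2, against 4 with RPKM as deposited, 5 with voom (4 up, 1 down) and 1 to 2 with a library left out. In RNA between 21 h and 6 h it was 2, against 1 without a filter, with quantile normalization, with only 2 groups in the model or without the 3 most abundant transcripts, 0 without trend and 0 to 1 with a library left out. With only Slc7a5, Slc7a6 and Slc7a11 as light chains, the ratio to Slc3a2 was 1.64 in footprints at 6 h and 1.48 in RNA at 21 h. Without the 3 transcripts, members took 1146, 1177 and 1397 of each 1000000 RNA-seq reads in the control, at 6 h and at 21 h, against 526, 512 and 660 with them. The cause of these shifts was not tested, apart from the smaller total in the last.

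The same replicate numbers occur in all groups, and deviations of same-numbered libraries correlated at -0.03 to 0.03. Correlations this low do not exclude that same-numbered libraries came from the same cells or lysate, which the labels do not give. With a replicate block, members called were 0, 3 and 3 in footprints (6 h, 21 h, 21 h against 6 h), 0, 3 and 2 in RNA and 0 in TE. The block added the RNA call of Slc38a2 at 21 h and changed no other member call. Outside the members it ended the 6 h footprint calls of Eif2s1, Ddit3 (adjusted p = 0.0597 from limma) and Atp2b1 (adjusted p = 0.0588 from limma). Over all transcripts it left 17 higher and 20 lower in footprints at 6 h, and 10 higher and 6 lower in TE at 21 h.

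Signs changed 59 times in 27 results, all uncalled, at sizes up to 0.188. With RPKM as deposited, Slc7a5 footprints were 0.0116 at 6 h, 0.0232 at 21 h and 0.0116 between them, and TE at 6 h was 0.0209 for Slc3a2, 0.0687 for Slc7a6 and 0.0411 for Slc1a4. Slc7a5 footprints at 6 h were 0.0142 with only 2 groups and 0.000795 with voom. With quantile normalization, Slc1a4 footprints were -0.0177 between 21 h and 6 h, and Slc1a5 TE at 6 h was -0.00836. The others came from leaving out a library, with the lowest and highest log2 change given. In footprints 6 h against control these ran from -0.0431 to 0.213 (Slc7a11), -0.00158 to 0.104 (Slc3a2), -0.0454 to 0.0400 (Slc7a5), -0.374 to 0.0121 (Slc1a5), -0.146 to 0.0483 (Slc38a2). In footprints 21 h against control these ran from -0.188 to 0.179 (Slc7a5), -0.194 to 0.115 (Slc7a1). In footprints 21 h against 6 h these ran from -0.194 to 0.174 (Slc7a5), -0.161 to 0.0641 (Slc1a5), -0.0153 to 0.0883 (Slc1a4). In RNA 6 h against control these ran from -0.161 to 0.0954 (Slc7a11), -0.0532 to 0.260 (Slc7a5), -0.385 to 0.00391 (Slc1a5), -0.0408 to 0.268 (Slc1a4), -0.0395 to 0.249 (Slc38a2). In RNA 21 h against control these ran from -0.303 to 0.0126 (Slc7a5), -0.0609 to 0.295 (Slc7a1), -0.110 to 0.282 (Slc1a5). In TE 6 h against control these ran from -0.015 to 0.252 (Slc7a11), -0.137 to 0.017 (Slc3a2), -0.263 to 0.0501 (Slc7a5), -0.169 to 0.00396 (Slc7a1), -0.145 to 0.123 (Slc7a6), -0.188 to 0.210 (Slc1a5), -0.188 to 0.122 (Slc1a4). In TE 21 h against control these ran from -0.0474 to 0.320 (Slc7a5), -0.343 to 0.0126 (Slc7a1).

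Over all transcripts, the number called moved by over 1.5 times in some comparisons, with the range over the alternatives in brackets. It was 212 in footprints 6 h against control (0 to 1276), 3189 in footprints 21 h against 6 h (1601 to 3638), 0 in RNA 6 h against control (0 to 229), 2245 in RNA 21 h against control (1058 to 3004), 1486 in RNA 21 h against 6 h (684 to 2012), 0 in TE 6 h against control (0 to 14), 38 in TE 21 h against control (0 to 151). Members had 39 to 322 RNA-seq reads a library, and RNA and TE intervals were wider than those of footprints.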

Other observations

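The transcripts whose pattern was closest to a member were found by the root mean square difference in log2 over the 12 libraries, each assay relative to its control mean, among 9287 transcripts. They are descriptions, since the libraries are shared and many transcripts move alike. Closest to Slc7a11 were Eif2ak2, the double-stranded RNA kinase that phosphorylates eIF2 (0.0903), Rfx7 (0.0914) and Idh1, cytosolic isocitrate dehydrogenase (0.0937). Closest to Slc3a2 was Ppp1r2, an inhibitor of protein phosphatase 1 (0.0724), and closest to Slc7a6 was Rrm1, the large subunit of ribonucleotide reductase (0.0866). For the others these were Trap1 (Slc7a5, 0.0866), Ylpm1 (Slc7a1, 0.0845), Emc1 (Slc38a2, 0.0610), Cks2 (Slc1a4, 0.0747) and Creld1 (Slc1a5, 0.0927). Between members, the closest pairs were Slc3a2 with Slc7a6 (0.130), Slc7a1 with Slc1a5 (0.145) and Slc1a4 with Slc38a2 (0.147). All of these member pairs were further apart than each member was from its closest other transcript. The latter was picked from 9287 transcripts and the pairs only from the few listed members, so this order tells nothing about likeness between members.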
